A study of Mus musculus with 8 samples.

Results

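Fatty acid oxidation genes encode the proteins that activate fatty acids, carry them into mitochondria or peroxisomes and shorten them, together with regulators of that traffic. They were taken as 31 genes listed by function, and every probe set of the array whose platform annotation names 1 of them was collected. That gave 60 probe sets, of which 57 name a single gene and 3 name a pair of related genes. Of the 31 genes, 30 had at least 1 single-gene probe set, out of 18193 genes on the array, and 28 could be tested, out of 10573. For Acsl1, a long-chain acyl-CoA synthetase, no probe set was analysed here. Each gene was represented by its brightest single-gene probe set, the one with the highest mean over the 8 arrays.

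The samples were RNA of pancreatic islets, the hormone-secreting cell clusters of the pancreas, from 2 inbred mouse strains, AKR/J and C57Bl/6J. Both had been on a high-fat diet for 3 months, so the diet is shared. The strain is the only difference that the labels give between the groups, and a control diet was not analysed here. Each strain gave 4 samples (arrays 1 to 4 for AKR/J, 5 to 8 for C57Bl/6J), each pooling islets of 2 mice, and 5 µg of RNA went on each Affymetrix array. The labels give no age or sex, and p-values measure the spread between pools.

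In beta-oxidation, a fatty acid is first joined to coenzyme A by an acyl-CoA synthetase, then passed through the mitochondrial membranes on carnitine, and then shortened in a spiral of dehydrogenation, hydration, a further dehydrogenation and thiolysis. Auxiliary enzymes deal with the double bonds of unsaturated chains, and peroxisomes shorten chains of their own. In beta cells, glucose raises malonyl-CoA, which inhibits the carnitine entry step and turns the cell from burning fat towards esterifying it. PPAR-alpha, encoded by Ppara, is a nuclear receptor that drives many of these genes in liver, and PGC-1alpha, encoded by Ppargc1a, is a coactivator of oxidative metabolism.

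The pathway did not move as a block. Values are intensities made by the authors with GCRMA and log2-transformed here, and differences are AKR/J minus C57Bl/6J. A gene was called at an adjusted p under 0.05 in limma's fit over all 20772 tested probe sets. Of the 28 tested genes, 2 rose in AKR/J, Eci1 and Acsl3, against 7.9% of all tested genes that were higher in AKR/J. In the other direction 4 fell, Acadl, Pdk4, Decr1 and Acsl5, against 8.73% of all tested genes. Together 6 of 28 (21.4%) were called, against 16.6% over all tested genes, a share near that background. With each array centred on its median, 4 rose and 4 fell, and with the deposited MAS5-type signals, an older summary of the same arrays, 4 rose and 5 fell. With the division of the arrays described further on as a block, 4 rose and 6 fell. The 22 remaining genes did not pass. Of the 28 differences, 12 were positive and 16 negative. The median difference over the 28 was -0.14, against -0.0016 over all tested genes; it was -0.08 without C57Bl/6J array 7 or 8 and 0.01 with the MAS5-type signals. The median absolute difference was 0.29 against 0.19. The 4 values of one strain lay apart from the 4 of the other in 11 of the 28 genes, against 25.3% of all tested genes (39.3% of the 28). Of these 11, 5 did not pass the test: Acadm, Hadha, Hadhb, Acaa1a and Ppargc1a. Ppargc1a met the detection filter through C57Bl/6J alone. It lends no support to the 11, nor to the 6 that fell with the block, where it was included.

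**Figure D1:**
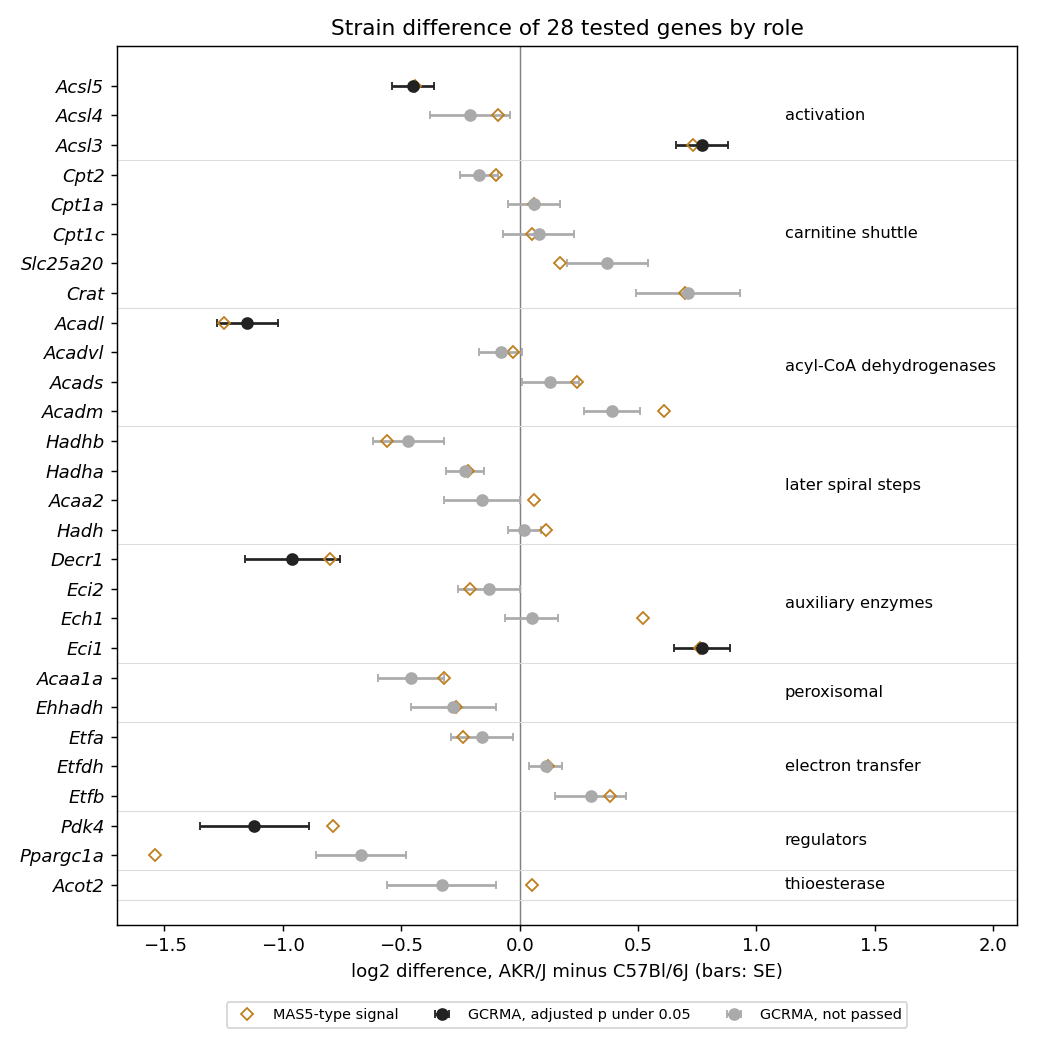
Strain difference of the 28 tested genes on the log2 scale, AKR/J minus C57Bl/6J, ordered by role. Circles are GCRMA differences with their SE (black, adjusted p under 0.05; grey, not passed) and open diamonds are the differences of the MAS5-type signals; the 6 black circles lie on both sides of 0, from -1.15 for Acadl to 0.77 for Eci1 and Acsl3.

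Markers of the cells in the samples were read beside these genes. Each sum below runs over all listed markers of a cell type that had a probe set, tested or not. All 9 beta cell markers with a probe set were detected, and their summed intensity was 136739 to 145922 in AKR/J, against 131122 to 137610 in C57Bl/6J; 2 of the 9, Slc2a2, the glucose transporter, and Ucn3, fell. Of 6 other endocrine markers 2 rose, with sums of 119111 to 127428 in AKR/J, against 100417 to 107834 in C57Bl/6J, and 0 rose without array 1, 2, 6 or 7. Markers of acinar cells, the digestive-enzyme cells around the islets, differed between the strains. Of 24 tested acinar markers 23 fell in AKR/J and 0 rose, and 15 fell with the MAS5-type signals. The summed intensity of the 25 acinar markers with a probe set was 314429 to 372818 in AKR/J, against 565261 to 577498 in C57Bl/6J. Of 14 tested macrophage markers 7 fell, with sums of 1948 to 2490 in AKR/J, against 3412 to 4485 in C57Bl/6J, and 4 fell without array 1, 2 or 6. Of 6 tested lymphocyte markers 2 fell, Igha and Ptprc, and 1 fell without array 3, 6, 7 or 8. Igha, detected on 1 AKR/J array and 4 C57Bl/6J arrays, entered the test through C57Bl/6J alone and lends the count no support. The sums over the 10 with a probe set were 194 to 825 in AKR/J, against 539 to 1273 in C57Bl/6J, and Cd3e, Cd8a and Cd4 were detected on no array. Of 2 tested duct markers 1 fell, with sums of 1459 to 1663 in AKR/J, against 1407 to 1613 in C57Bl/6J; Sox9, Cftr and Muc1 were detected on no array. Both tested fat cell markers, Lpl and Fabp4, fell (1 fell without array 1, 2, 5, 6, 7 or 8). The sum over 7 fat cell markers was 2387 to 2869 in AKR/J, against 3827 to 5338 in C57Bl/6J. Of these 7, Cidec, Lep, Retn and Pck1 were detected on no array. Of 10 endothelial markers 4 rose, with sums of 5217 to 6057 in AKR/J, against 4765 to 5381 in C57Bl/6J; 1 rose with the MAS5-type signals. The part of these cells in the values that follow was not tested, and in such bulk samples fewer cells of a type and less RNA per cell cannot be told apart.

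Activation. The acyl-CoA synthetases went in opposite directions. Acsl3, the enzyme of the endoplasmic reticulum and lipid droplets, had log2 values of 6.48, 6.42, 6.42 and 6.72 in AKR/J islets, against 5.96, 5.80, 5.66 and 5.55 in C57Bl/6J islets. The lowest AKR/J value was 0.45 above the highest C57Bl/6J value. The difference was 0.77 (SE 0.11), making Acsl3 1.70-fold higher (limma adjusted p = 0.00331). A dimmer Acsl3 probe set differed by 0.41 in the same direction and did not pass (adjusted p = 0.176). Acsl5, an isoform of mitochondria and endoplasmic reticulum, had 7.94, 7.66, 7.85 and 7.87 in AKR/J, against 8.28, 8.46, 8.16 and 8.23 in C57Bl/6J. The groups did not overlap, and Acsl5 was 1.37-fold lower in AKR/J (difference -0.45, SE 0.09; adjusted p = 0.0147). Acsl4, which prefers arachidonic acid and similar chains, overlapped between strains, with 8.68 ± 0.32 in AKR/J, against 8.88 ± 0.19 in C57Bl/6J (SD, n = 4 each; limma adjusted p = 0.45). Its other tested probe sets differed by 0.08 and 0.23, so the direction was not the same in all 3.

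**Figure D2:**
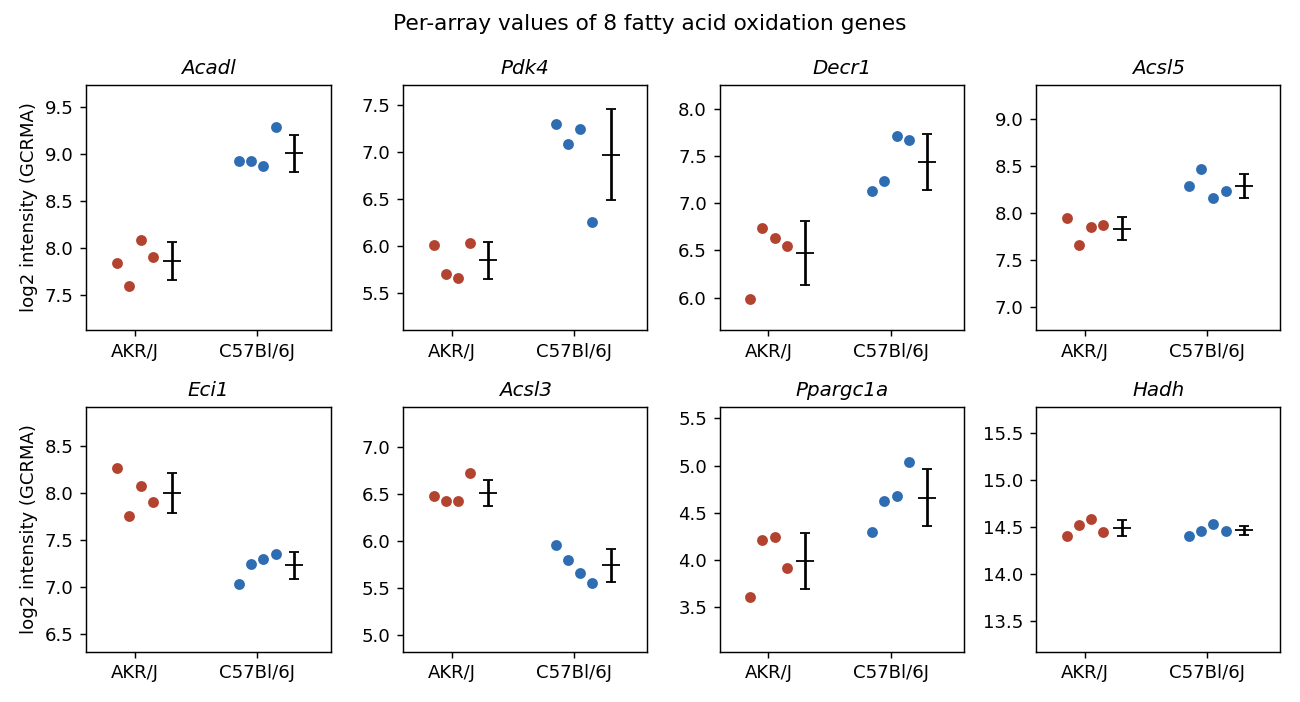
Log2 GCRMA intensity on each array for the 6 called genes, Ppargc1a and Hadh, AKR/J left of C57Bl/6J. Points are arrays, and bars are mean and SD of 4 arrays; all panels span the same range of log2 units, and the Hadh values of both strains lie between 14.40 and 14.59.

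Entry into mitochondria. None of the 5 genes of the carnitine shuttle passed the test (differences -0.17 to 0.71). Cpt1a, the outer-membrane transferase that malonyl-CoA inhibits, had 8.35, 8.37, 8.57 and 8.52 in AKR/J, against 8.17, 8.31, 8.56 and 8.52 in C57Bl/6J. Its groups overlapped almost fully (difference 0.06, SE 0.11; limma adjusted p = 0.724), and its other probe sets differed by -0.04 and -0.09. Cpt2, the inner-membrane partner that hands the chain back to coenzyme A, differed by -0.17 (SE 0.08, adjusted p = 0.232). Slc25a20, the carrier that exchanges acylcarnitine for carnitine, differed by 0.37 with each of its probe sets (SE 0.17 and 0.14; adjusted p = 0.173 and 0.114). Crat, which moves acetyl and other short acyl groups between carnitine and coenzyme A, varied most in this group. It had 6.07, 6.24, 6.20 and 5.97 in AKR/J, against 6.01, 5.59, 4.92 and 5.10 in C57Bl/6J. The strains met at C57Bl/6J array 5, the difference was 0.71 (SE 0.22), and the adjusted p was 0.0719, or 0.0152 without that array. Crat passed in 1 of 8 fits with an array left out and in 3 of 11 other settings. Its dimmer probe sets, detected on 1 and 0 arrays and so not tested, differed by 0.88 and 0.16. Cpt1c, an isoform best known from neurons and the endoplasmic reticulum, differed by 0.08 (SE 0.15, adjusted p = 0.759). As a description, the mean of the 5 genes relative to the 8-array mean was 0.01, 0.07, 0.18 and 0.17 in AKR/J, against -0.06, -0.08, -0.13 and -0.16 in C57Bl/6J; Crat and Slc25a20 had the largest differences among them.

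Chain-length dehydrogenases. The 4 acyl-CoA dehydrogenases carry out the first step of each turn, for chains of decreasing length, and they did not move together. Acadl, the long-chain enzyme, had 7.84, 7.60, 8.09 and 7.91 in AKR/J islets, against 8.93, 8.93, 8.87 and 9.29 in C57Bl/6J islets. The highest AKR/J array was 0.79 below the lowest C57Bl/6J array, the widest gap of any tested gene of the 28. Acadl was 2.21-fold lower in AKR/J (difference -1.15, SE 0.13; limma adjusted p = 0.00102) and by -1.25 with the MAS5-type signals (adjusted p = 0.00239). A second Acadl probe set was detected on no array. Acadvl, the very-long-chain enzyme of the inner membrane, had 8.60 ± 0.13 in AKR/J, against 8.68 ± 0.12 in C57Bl/6J (SD, n = 4 each; limma adjusted p = 0.586). Acadm, the medium-chain enzyme, lay the other way from Acadl. It had 8.82, 8.68, 8.62 and 8.88 in AKR/J, against 8.09, 8.29, 8.55 and 8.50 in C57Bl/6J. The strains did not overlap, by 0.07, and the difference of 0.39 (SE 0.12) missed the threshold (adjusted p = 0.0592); the Acadm log2 difference passed with the arrays centred on their medians (adjusted p = 0.0449), as did the MAS5-type difference of 0.61 (adjusted p = 0.0309) and the difference without C57Bl/6J array 7 (0.0469). Acads, the short-chain enzyme, differed by 0.13 (SE 0.12, adjusted p = 0.499). The difference between Acadl and the other dehydrogenases was not itself tested.

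Later steps of the spiral. Hadha and Hadhb, the subunits of the mitochondrial trifunctional protein, are neighbours on chromosome 5 with 0 protein-coding genes between them. Hadha had 8.81, 8.81, 8.87 and 8.75 in AKR/J, against 9.19, 9.10, 8.90 and 8.96 in C57Bl/6J. Hadhb had 10.34, 10.45, 10.93 and 10.93 in AKR/J, against 11.12, 11.02, 11.19 and 11.20 in C57Bl/6J. Both were below C57Bl/6J on every AKR/J array, by -0.23 (SE 0.08) and -0.47 (SE 0.15), and neither passed (limma adjusted p = 0.0971 and 0.074). AKR/J arrays 1 and 2 were lower in Hadhb than arrays 3 and 4, and a second Hadhb probe set differed by -0.15 (adjusted p = 0.187). Hadhb passed without AKR/J array 3 (0.0491), with the MAS5-type signals (0.0355) and with the array division as a block (Hadhb log2 difference -0.47, adjusted p = 0.0188). Hadh, the short-chain hydroxyacyl-CoA dehydrogenase, is known in islets for restraining glutamate dehydrogenase, and its loss in people causes excess insulin secretion. It had 14.40, 14.52, 14.59 and 14.45 in AKR/J, against 14.41, 14.46, 14.53 and 14.46 in C57Bl/6J. These groups overlapped throughout (difference 0.02, SE 0.07; adjusted p = 0.848), and the other Hadh probe sets differed by -0.08 and -0.17. After a further quantile normalization the Hadh difference was 0.26 and passed (adjusted p = 0.0312). Acaa2, the thiolase that ends the mitochondrial turn, differed by -0.16 (SE 0.16, adjusted p = 0.527) with 1 probe set and 0.23 with another.

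Auxiliary enzymes. The 4 enzymes that prepare double bonds held 1 gene that rose and 1 that fell. Eci1, the mitochondrial isomerase that shifts double bonds of monounsaturated and polyunsaturated chains into the position the spiral accepts, had 8.26, 7.76, 8.07 and 7.90 in AKR/J, against 7.03, 7.25, 7.30 and 7.35 in C57Bl/6J. It was 1.70-fold higher in AKR/J (difference 0.77, SE 0.12; limma adjusted p = 0.00527), and the groups were 0.41 apart. Decr1, the mitochondrial dienoyl-CoA reductase needed for polyunsaturated chains, had 5.98, 6.74, 6.63 and 6.55 in AKR/J, against 7.13, 7.24, 7.71 and 7.67 in C57Bl/6J. AKR/J array 1 was the lowest and the groups were 0.39 apart. Decr1 was 1.95-fold lower in AKR/J (difference -0.96, SE 0.20; adjusted p = 0.0162), and a dimmer probe set lay the same way without passing (-0.66, adjusted p = 0.139). Ech1, a dienoyl-CoA isomerase, differed by 0.05 (SE 0.11, adjusted p = 0.782), or 0.52 with the MAS5-type signals (adjusted p = 0.123). Eci2, the isomerase found in mitochondria and peroxisomes, differed by -0.13 (SE 0.13, adjusted p = 0.568).

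Peroxisomal enzymes. Acaa1a encodes the peroxisomal thiolase, and its close relative Acaa1b shares much of its sequence. Its own brightest probe set had 4.75, 4.95, 4.79 and 4.99 in AKR/J, against 5.18, 5.33, 5.71 and 5.07 in C57Bl/6J, and it did not pass (difference -0.46, SE 0.14; limma adjusted p = 0.0673, or 0.0477 without C57Bl/6J array 8). Another single-gene probe set of Acaa1a, between 3.44 and 3.51 on all 8 arrays, differed by -0.01 (adjusted p = 0.938). The brighter signal came from 2 probe sets that name both genes. The first had 7.74, 7.83, 7.98 and 7.98 in AKR/J, against 8.56, 8.58, 8.48 and 8.65 in C57Bl/6J. The second had 6.75, 6.90, 7.24 and 7.09 in AKR/J, against 7.71, 7.76, 7.86 and 7.91 in C57Bl/6J. In both the strains lay apart, and the shared signal was 1.61-fold and 1.76-fold lower in AKR/J (differences -0.68 and -0.81; adjusted p = 0.00102 and 0.00262). These values cannot be assigned to Acaa1a or Acaa1b, and a probe set that names Acaa1b alone was detected on no array. Ehhadh, the peroxisomal bifunctional enzyme, had 6.62 ± 0.31 in AKR/J, against 6.91 ± 0.24 in C57Bl/6J (SD, n = 4 each; difference -0.28, limma adjusted p = 0.327).

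**Figure D3:**
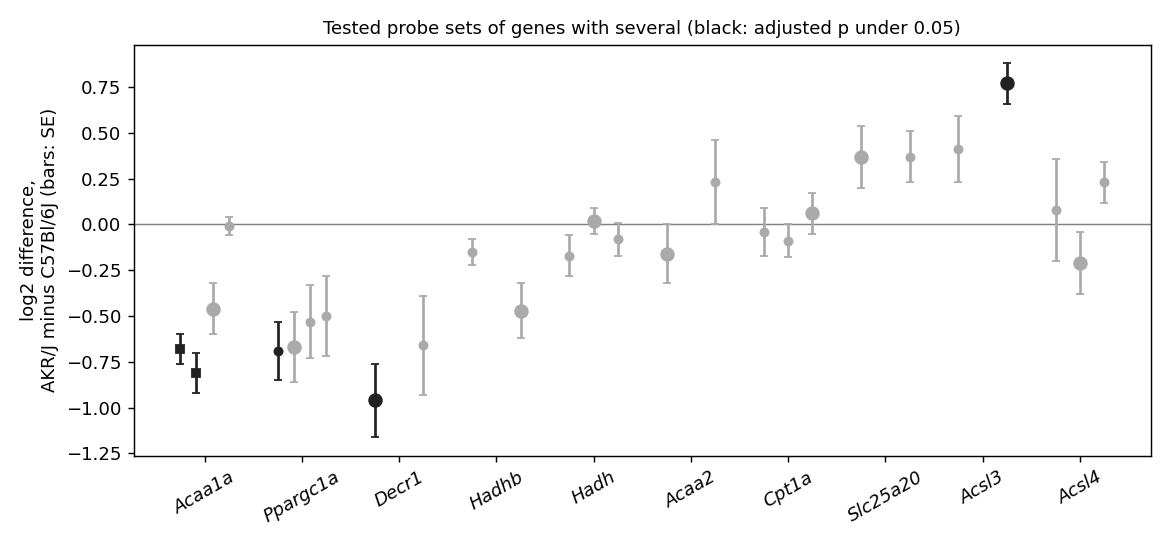
Log2 difference, AKR/J minus C57Bl/6J, with its SE for each tested probe set of 10 genes that have several. Large circles mark the brightest single-gene probe set, squares the probe sets that name a pair of genes, and black an adjusted p under 0.05; the 2 squares of Acaa1a are at -0.68 and -0.81, and the 4 marks of Ppargc1a lie between -0.69 and -0.50.

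Electron transfer. Etfa and Etfb form the flavoprotein that takes electrons from the dehydrogenases, and Etfdh passes them to ubiquinone. None of the 3 passed. Etfa differed by -0.16 (SE 0.13), Etfb by 0.30 (SE 0.15) and Etfdh by 0.11 (SE 0.07), with limma adjusted p of 0.424, 0.218 and 0.305. Their strains overlapped in every case.

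Regulators and PPAR targets. Ppara itself was detected on no array by any of its 3 probe sets, so its level was not measured above background and it was not tested. Ppargc1a was dim. Its brightest probe set had 3.60, 4.21, 4.24 and 3.91 in AKR/J, where it was detected on 1 of 4 arrays, against 4.30, 4.62, 4.68 and 5.04 in C57Bl/6J, where it was detected on all 4. The MAS5-type difference was -1.54 (adjusted p = 0.0797). The gene met the detection filter through C57Bl/6J alone and did not pass (difference -0.67, SE 0.19, limma adjusted p = 0.0532). Its adjusted p was 0.0401 without C57Bl/6J array 5, and it passed in 5 of 10 other settings. Another probe set of Ppargc1a passed (-0.69, adjusted p = 0.0239), and a further 2 lay the same way without passing (-0.53 and -0.50; adjusted p = 0.118 and 0.167). In these 4 tested probe sets the strains did not overlap, by 0.01 to 0.07. A further Ppargc1a probe set, detected on 1 array and so not tested, differed by 0.01, and its strains overlapped. Pdk4, the kinase that switches off pyruvate dehydrogenase and is a well-known PPAR target, had 6.01, 5.71, 5.66 and 6.03 in AKR/J islets, against 7.30, 7.09, 7.24 and 6.26 in C57Bl/6J islets. The strains were 0.23 apart, C57Bl/6J array 8 lying nearest to the AKR/J arrays. Pdk4 was 2.18-fold lower in AKR/J (difference -1.12, SE 0.23; adjusted p = 0.0154) and by -0.79 with the MAS5-type signals (adjusted p = 0.0406). A list of 18 established PPAR-alpha targets among these genes had 16 tested, of which 1 rose (Eci1), 3 fell (Acadl, Decr1 and Pdk4) and 12 did not pass, with a median difference of -0.20. Over all tested genes 7.9% were higher and 8.73% lower. Of the classical targets, Cpt1a, Acadm, Acaa1a and Ehhadh are described above and none was called.

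Thioesterases. Acot1 and Acot2, neighbours on chromosome 12, release fatty acids from coenzyme A in the cytosol and in mitochondria. The probe set that names Acot1 alone was detected on 2 AKR/J arrays and 0 C57Bl/6J arrays and was not tested. Acot2 had 5.80, 5.69, 6.10 and 6.15 in AKR/J, against 5.86, 6.07, 6.19 and 6.92 in C57Bl/6J. It was detected on 1 AKR/J array and 4 C57Bl/6J arrays, and the strains overlapped (difference -0.33, SE 0.23; limma adjusted p = 0.38). A probe set naming both genes differed by -0.03 (adjusted p = 0.929).

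The promoters of these genes, from 250 bases before to 50 after the start in RefSeq's GRCm38.p6 models, were searched for AGGTCA, the core motif that PPAR and related nuclear receptors bind, on both strands. A promoter was found for 28 of the 31 genes, 29 promoters in all. Of these, 4 held the motif (13.8%), against 16.3% of 32851 promoters, and 0 held a pair of motifs in the same direction with 1 base between, a spacing found in 13 of all promoters (0.0396%). The 4 promoters with the motif are shown, and none of their 4 genes was called. Capitals mark the motif, written as AGGTCA in the gene's direction or TGACCT on the other strand. Each stretch is given in the gene's direction.
Cpt1a, chr19:3323190-3323229, plus strand: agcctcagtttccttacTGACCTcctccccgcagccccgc
Cpt1c, chr7:44974975-44975014, minus strand: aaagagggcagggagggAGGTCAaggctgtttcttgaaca
Acadvl, chr11:70015493-70015532, minus strand: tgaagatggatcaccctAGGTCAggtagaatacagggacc
Acadm, chr3:153944870-153944893, minus strand: gTGACCTtcgggctccggtgacac
None of the 6 called genes held these letters in this window, which says nothing of whether a receptor acts on them.

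Across arrays the genes varied within strains as well as between them. The mean of the 28 tested genes, relative to the 8-array mean, was -0.15, -0.11, 0.00 and 0.03 in AKR/J, against -0.04, 0.03, 0.13 and 0.11 in C57Bl/6J. The ranges overlapped, AKR/J arrays 3 and 4 being above C57Bl/6J array 5. Arrays 3, 4, 7 and 8, a division known from earlier work on these arrays and given by no label, were above arrays 1, 2, 5 and 6 within each strain in 7 of the 28 genes and below in 0. Cpt1a, Etfa and Eci2 were among the 7. The same share over all tested genes was not worked out, so the 7 cannot be read as particular to these genes. The strain differences of the called genes had the same direction in both divisions, for example -1.21 and -1.09 for Acadl and -1.34 and -0.91 for Pdk4.

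**Figure D4:**
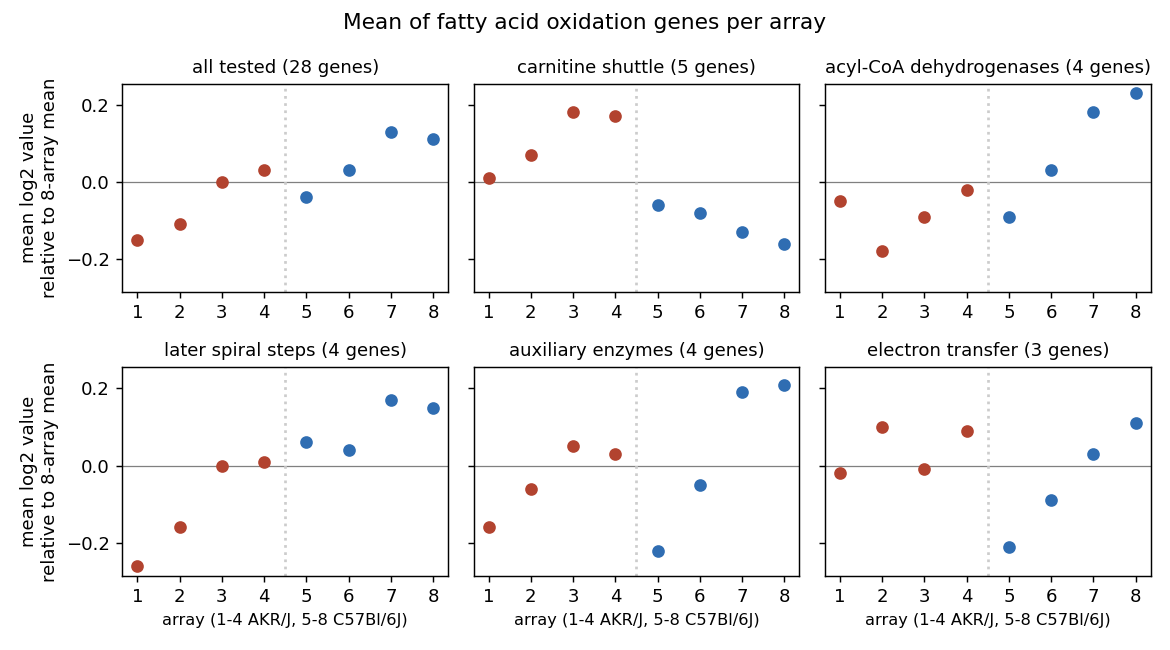
Mean log2 value per array, relative to the 8-array mean, of all 28 tested genes and of 5 groups by role; arrays 1 to 4 are AKR/J and 5 to 8 C57Bl/6J. The strains overlap for the 28 genes together, and the carnitine shuttle means are 0.01 to 0.18 in AKR/J, against -0.16 to -0.06 in C57Bl/6J. The means of the later spiral steps lie the other way, -0.26 to 0.01 in AKR/J, against 0.04 to 0.17 in C57Bl/6J.

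Other genes of the same traffic were read from lists of pathway genes, whose counts stand against the 7.9% of all tested genes that were higher in AKR/J and the 8.73% that were lower. Of 29 tested genes of mitochondrial and related acyl-CoA metabolism, 4 rose and 7 fell, with a median difference of -0.07; 4 fell without array 1, 4 or 7, and 2 rose with the MAS5-type signals. Those that rose were Crot, which makes octanoylcarnitine in peroxisomes (1.81-fold; limma adjusted p = 0.00184), Acot9, a mitochondrial thioesterase (1.57-fold, 0.00382), Acsl6, a long-chain synthetase best known from brain (1.57-fold, 0.00573), and Mcat, of mitochondrial fatty acid synthesis (1.48-fold, 0.0435). The Mcat strains overlapped, and it was called in 2 of 8 fits with an array left out. Those that fell most clearly were Nudt7, a peroxisomal coenzyme A hydrolase (2.52-fold, adjusted p = 0.000101), Echdc2, an enoyl-CoA hydratase domain gene (2.48-fold, 0.00318), and genes of branched-chain amino acid and ketone body breakdown, namely Ivd (1.72-fold, 0.0113), Acat1 (1.35-fold, 0.0156) and Hibch (1.79-fold, 0.0331). Hibch was called in 4 of 8 fits with an array left out (adjusted p up to 0.0786), and Acat1 did not pass with the MAS5-type signals. Nudt7 had 7.76, 7.85, 7.99 and 7.80 in AKR/J, against 9.11, 9.01, 9.24 and 9.38 in C57Bl/6J, a separation of 1.02. Of 17 tested genes of a separate peroxisome list, which does not hold Nudt7 or Crot, 2 rose and 0 fell: Decr2, the peroxisomal counterpart of Decr1 (1.71-fold, adjusted p = 0.00372), and Pex14, of the peroxisomal import machinery (difference 0.58, 0.0054). Decr2 had 7.36, 7.71, 7.39 and 7.56 in AKR/J, against 6.60, 6.97, 6.75 and 6.59 in C57Bl/6J. Decr1 and Decr2 thus had differences of -0.96 and 0.78. Of 3 tested ketone body genes 1 fell, Acat1, and 0 rose.

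Among 24 tested regulators and further PPAR targets 0 rose and 4 fell, with a median difference of 0.01. Pparg, the nuclear receptor of fat cells, which was also in the list of regulators and is dim in islets, had 3.75, 4.72, 3.77 and 3.75 in AKR/J, where it was not detected, against 5.51, 5.79, 5.86 and 5.53 in C57Bl/6J. The difference was -1.68 (SE 0.23, limma adjusted p = 0.00243), or 3.20-fold lower in AKR/J. With no detection in AKR/J, the size of this fold is uncertain. Pparg entered the test only through C57Bl/6J, so its place among the 4 lends the count no support. Pdk2, another pyruvate dehydrogenase kinase, had 4.81, 4.05, 5.59 and 5.12 in AKR/J, against 6.70, 6.79, 6.89 and 7.15 in C57Bl/6J. It was 3.97-fold lower in AKR/J (difference -1.99, adjusted p = 0.00365), but by -0.70 with the MAS5-type signals, which did not pass (0.0744). Prkaa2, a catalytic subunit of the energy sensor AMPK (1.62-fold, adjusted p = 0.0177), and the deacetylase gene Sirt1 (1.46-fold, 0.0349) also fell; with an array left out Prkaa2 was called in 6 of 8 fits (adjusted p up to 0.0515) and Sirt1 in 2 (up to 0.0813). Without array 2, 2 of these genes fell. Rxrg, Ppargc1b, Esrrb, Ucp3, Plin5, Cyp4a14 and Fabp1 were detected on no array.

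The 6 calls among the fatty acid oxidation genes held with each array left out in turn, and all 6 also passed with the MAS5-type signals. Acadl, Eci1, Pdk4 and Acsl5 are among the 18 genes with 1 tested probe set, so no second probe set bears on their values. The MAS5-type signals summarize the same arrays and are no separate measurement. Whether a sequence difference between the strains at a probe set changes its signal was not tested.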

How the data were processed

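RNA of 8 islet pools was measured on Affymetrix arrays, 4 per strain, the strain being read from each title. The deposited value table holds intensity values from GCRMA, a tool named in the submitters' processing notes (version not given in the sources used here); these were log2-transformed with no further normalization. The deposited per-array files hold, per the file headers, a MAS5-type intensity signal and a detection p-value. Of 45037 probe sets that are no controls, the 20772 detected on at least 4 of 8 arrays were fitted with limma 3.58.1 in R 4.3.3 (lmFit, eBayes), adjusted by Benjamini-Hochberg over all of them, threshold 0.05. Between 43.7% and 48.1% of probe sets were detected per array; the number of arrays limits the precision. Arrays correlated at r = 0.985 to 0.993 within strains and 0.966 to 0.975 between them.

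GEO's platform annotation names 1 gene for 34945 probe sets, several for 932 and none for 9160; Entrez identifiers matched 34741 to RefSeq (GRCm38.p6), which changed 0 symbols. The deposited files name no build, so coordinates are given for the promoter stretches alone, from RefSeq's GRCm38.p6 table. All 31 genes are named, with up to 5 called genes per direction of each pathway list and up to 4 of each marker list. Genes and lists were chosen with earlier results of these data known.

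The strains share no array number, so nothing pairs the samples. On simulated data for AKR/J minus C57Bl/6J with 200 changed probe sets of 20772, the fit recovered 38.8% of 1.5-fold, 76.1% of 2-fold and 97.0% of 4-fold changes, with 8 false calls. In the data a larger share was called, 16.6% of tested genes, so these rates do not give the recovery in the data. Alternatives were another detection filter, MAS5-type signals (floor at the 5th percentile, quantile normalized), further normalization, another variance model, other choices of probe set, adjustment over genes, a division of the arrays as a block and each array left out. Figures used Python 3.11.15 with matplotlib 3.10.9.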

Additional observations from a re-analysis of the deposited data

Results flagged for a closer look

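Of 56 groups of 4 arrays (28 genes in each strain), 2 held an array far from the other 3, where chance gives about 1 in 20. Acadl was at 9.29 on C57Bl/6J array 8, against 8.87 to 8.93 on the other C57Bl/6J arrays; without it the Acadl difference was still called. Acads was at 6.30 on AKR/J array 4, against 5.98 to 6.01 on the other AKR/J arrays.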

How the results depend on the processing

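Of the 524 values of these genes under the alternatives, 489 kept their direction and their side of the threshold, 3 lost their call, 21 gained one and 11 changed sign. The number that rose, 2, was 4 with the MAS5-type signals, with arrays centred on medians and with arrays 1, 2, 5 and 6 against 3, 4, 7 and 8 as a block, where Acadm and Crat were added, and 1 with probe sets free of the _x_at, _s_at or _a_at suffix, where Acsl3 lost its call. The number that fell, 4, was 2 with no filter on detection, where Decr1 (adjusted p = 0.0542) and Pdk4 (0.0536) missed the threshold, and 6 with the block, where Hadhb and Ppargc1a were added. Ppargc1a met the detection filter through C57Bl/6J alone and lends that count no support. The median was -0.14, and 0.01 with the MAS5-type signals. Allowing probe sets that name several genes, an alternative chosen after seeing the data, added Acaa1a (0.00102). Signs changed only in 7 genes that were not called: Acaa2 (0.06 with MAS5-type signals, 0.03 as the mean of its probe sets), Acot2 (0.05, MAS5-type), Acsl4 (0.04, mean), Cpt1a (-0.02, mean; -0.01 without array 5), Cpt1c (-0.05 without array 8), Ech1 (-0.003 without array 5) and Hadh (-0.08 without suffixes, -0.07 as mean, -0.01 without array 3). With 1 array left out, differences ran from -0.01 to 0.12 for Cpt1a, -0.05 to 0.15 for Cpt1c, -0.003 to 0.12 for Ech1 and -0.01 to 0.05 for Hadh. The cause of these changes was not tested. No paired analysis was possible because the strains share no array number.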
